A study of Mus musculus with 9 samples.

Results

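The immunoglobulin heavy and light chain genes were followed in 9 liver libraries of db/db mice. Members were all rows whose gene symbol begins with Ighv, Ighd, Ighj, Ighg, Igha, Ighe, Igkv, Igkj, Igkc, Iglv, Iglj or Iglc, together with Ighm. The rule found 209 of the 28517 genes listed: 93 heavy, 89 kappa and 3 lambda V genes, 1 D gene, 11 J genes and 12 constant region genes. The heavy chain members lie on chromosome 12, the kappa members on chromosome 6 and the lambda members on chromosome 16, and the identifiers and positions of all 209 match GENCODE M21 on GRCm38. The db/db mouse lacks a working leptin receptor and becomes obese and diabetic. All 3 groups carry that defect, and the labels give neither the strain background nor the age. The vehicle group received PBS, and the others received FGF19WT or FGF19ΔKLB, in each case for 12 weeks with 3 libraries a group. FGF19 is an intestinal hormone that acts on the liver through an FGF receptor and the co-receptor β-klotho (Klb), and the labels do not give the sequence change of FGF19ΔKLB, whose column headers read F19_HBS. The labels do not say that the replicates are separate animals, so p-values measure the spread between these samples.

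An antibody is made of heavy and light chains, each with a variable region joined from V, D and J segments (V and J in light chains) and a constant region. The heavy chain constant gene sets the class: Ighm and Ighd are carried by naive B cells, and class switching brings Ighg1, Ighg2b, Ighg2c, Ighg3, Ighe or Igha into use. Resting B cells make little immunoglobulin mRNA, while plasma cells, the end stage that secretes antibody, make very large amounts. In whole liver, B cells and plasma cells of the tissue and of its blood are the known source, since hepatocytes do not rearrange these genes.

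The reading of single genes rests on how alike they are. The 4 IgG constant genes differ in the hinge, the flexible stretch that joins the arms of the antibody to its stem and carries cysteines that bond the heavy chains together. Their hinge exons (exon 2, minus strand of chromosome 12, GENCODE M21 transcripts on GRCm38) are shown 5′ to 3′ because they tell apart the subclasses on which the results turn. Capitals mark in-frame cysteine codons, of which Ighg1 and Ighg2b have 4, Ighg2c has 3 and Ighg3 has 1.
Ighg1, 39 bases at chr12:113329844-113329882: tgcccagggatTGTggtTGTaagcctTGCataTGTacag
Ighg2b, 66 bases at chr12:113307261-113307326: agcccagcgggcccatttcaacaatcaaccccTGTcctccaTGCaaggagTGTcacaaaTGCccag
Ighg2c, 63 bases at chr12:113288263-113288325: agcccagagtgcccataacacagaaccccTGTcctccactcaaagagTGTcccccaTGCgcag
Ighg3, 48 bases at chr12:113360529-113360576: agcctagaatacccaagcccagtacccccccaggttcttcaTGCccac

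V genes come in families of close copies. Of the 185 V genes listed, 179 have a coding sequence in the annotation, their median identity to the nearest other V gene is 94.9%, and 89 are at least 95% identical to it. None of the 179 is identical to another. Both pairs printed here hold a gene that the results turn on and a near copy, with the bases that differ between the 2 genes in capitals; the second coding exon, 298 bases, is shown. Igkv12-44 and Igkv12-46 are 95.4% identical, with 16 differences over 347 coding bases, all in this exon, and Igkv10-94 and Igkv10-95 are 97.1% identical, with 10 differences, 9 of them in this exon. How the authors assigned reads that match both copies is not given in the sources used here, so the counts of single V genes are uncertain and their sums are less so.
Igkv12-44, minus strand, chr6:69814631-69814928, exon 2: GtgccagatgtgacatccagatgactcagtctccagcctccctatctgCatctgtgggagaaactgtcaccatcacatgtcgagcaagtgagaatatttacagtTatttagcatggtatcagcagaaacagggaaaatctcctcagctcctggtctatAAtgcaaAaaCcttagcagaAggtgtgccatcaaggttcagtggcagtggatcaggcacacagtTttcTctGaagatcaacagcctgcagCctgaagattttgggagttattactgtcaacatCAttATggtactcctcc
Igkv12-46, minus strand, chr6:69764523-69764820, exon 2: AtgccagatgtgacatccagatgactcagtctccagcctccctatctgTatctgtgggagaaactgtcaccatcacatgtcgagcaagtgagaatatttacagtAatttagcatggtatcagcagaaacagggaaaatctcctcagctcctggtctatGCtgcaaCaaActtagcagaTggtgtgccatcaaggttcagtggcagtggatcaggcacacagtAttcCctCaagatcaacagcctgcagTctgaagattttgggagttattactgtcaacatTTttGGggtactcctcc
Igkv10-94, minus strand, chr6:68704508-68704805, exon 2: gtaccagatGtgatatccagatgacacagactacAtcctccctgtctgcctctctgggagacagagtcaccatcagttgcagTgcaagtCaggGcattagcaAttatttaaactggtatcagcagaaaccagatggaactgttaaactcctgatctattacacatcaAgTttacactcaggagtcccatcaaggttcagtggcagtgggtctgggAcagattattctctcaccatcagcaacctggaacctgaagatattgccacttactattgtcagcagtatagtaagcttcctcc
Igkv10-95, plus strand, chr6:68680551-68680848, exon 2: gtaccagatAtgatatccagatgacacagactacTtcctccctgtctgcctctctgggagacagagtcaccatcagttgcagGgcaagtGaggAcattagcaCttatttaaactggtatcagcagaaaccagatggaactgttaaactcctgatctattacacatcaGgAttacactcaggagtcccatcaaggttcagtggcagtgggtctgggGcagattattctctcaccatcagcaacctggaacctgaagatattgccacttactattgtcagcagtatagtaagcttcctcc

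FGF19WT libraries 2 and 3 stood apart from the other 7 across all genes: on the first principal component, which holds 48.9% of the variance, they lay at 129.8 and 169.9 while the rest lay between -64.0 and -7.85. Fitted values of the constant region genes, Jchain, Mzb1 and Blnk are therefore also given without libraries 2 and 3 where that changes a call or moves a printed fold by over 1.5 times. Such a fit has 1 FGF19WT library left and takes it to vary like the other groups, so its p-values carry no replicate check of FGF19WT. Total counts were 65.1 to 73.3 M per library in all groups. Many low counts are multiples of 4, so about 4 counts are taken here as 1 read pair. How the authors made the counts is not given in the sources used here. Counts are compared as CPM, the count relative to the library total with TMM factors applied. A count of 12, taken as about 3 read pairs, is used as the floor below which a gene is not told apart from 0.

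Immunoglobulin transcripts were most abundant in vehicle livers, lower with FGF19ΔKLB and lowest with FGF19WT. The 209 genes together held 42849, 21683 and 20114 counts in the vehicle libraries. They held 2883, 657 and 381 in the FGF19WT libraries, and 4085, 9688 and 4845 in the FGF19ΔKLB libraries. The 3 groups do not overlap, although vehicle library 1 has about as many as both other vehicle libraries together. As a share of all counts this is 0.0278% to 0.0585% in vehicle, 0.000585% to 0.00409% under FGF19WT and 0.00557% to 0.0140% under FGF19ΔKLB.

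The summed level was 382 ± 167 CPM in vehicle, 18.6 ± 20.5 CPM with FGF19WT and 94.7 ± 44.5 CPM with FGF19ΔKLB (mean ± SD, n = 3 each). By the ratio of means it was 20.5-fold lower than vehicle with FGF19WT and 4.04-fold lower with FGF19ΔKLB, and FGF19ΔKLB lay 5.09-fold above FGF19WT. FGF19WT library 1, which did not stand apart, had 42.2 CPM, 9.05-fold below the vehicle mean and still below the lowest FGF19ΔKLB library at 59.9 CPM. A sum over chosen genes is given as a description without a test. In whole tissue, fewer cells of a type and less RNA per cell cannot be told apart.

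Heavy and kappa sums gave similar ratios between groups, and lambda smaller ones. Heavy chain genes summed to 272, 161 and 126 CPM in vehicle, 24.2, 3.70 and 2.48 with FGF19WT, and 31.5, 72.7 and 39.0 with FGF19ΔKLB. Kappa genes summed to 295, 152 and 127 CPM, then 15.4, 4.0 and 2.96, then 25.5, 68.5 and 38.0 in the same order. Lambda, the minor light chain of the mouse, summed to 4.91, 4.14 and 4.05 CPM in vehicle, 2.64, 0.41 and 0.09 with FGF19WT and 2.89, 3.65 and 2.33 with FGF19ΔKLB. Between FGF19WT and vehicle the ratio of means was 18.4-fold lower for heavy, 25.7-fold lower for kappa and 4.19-fold lower for lambda chains. Between FGF19ΔKLB and vehicle it was 3.90-fold, 4.35-fold and 1.48-fold lower. In each chain both treated groups lie wholly below vehicle, whereas the lambda sums of the 2 treated groups overlap. Of the 2 lambda V genes with the highest mean, Iglv1 had 110 to 147 counts in vehicle, 0 to 53 under FGF19WT and 52 to 114 under FGF19ΔKLB. Iglv3 had 27 to 43, 0 to 14 and 6 to 10. Whether the chains differ from each other in their response was not tested.

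**Figure D1:**
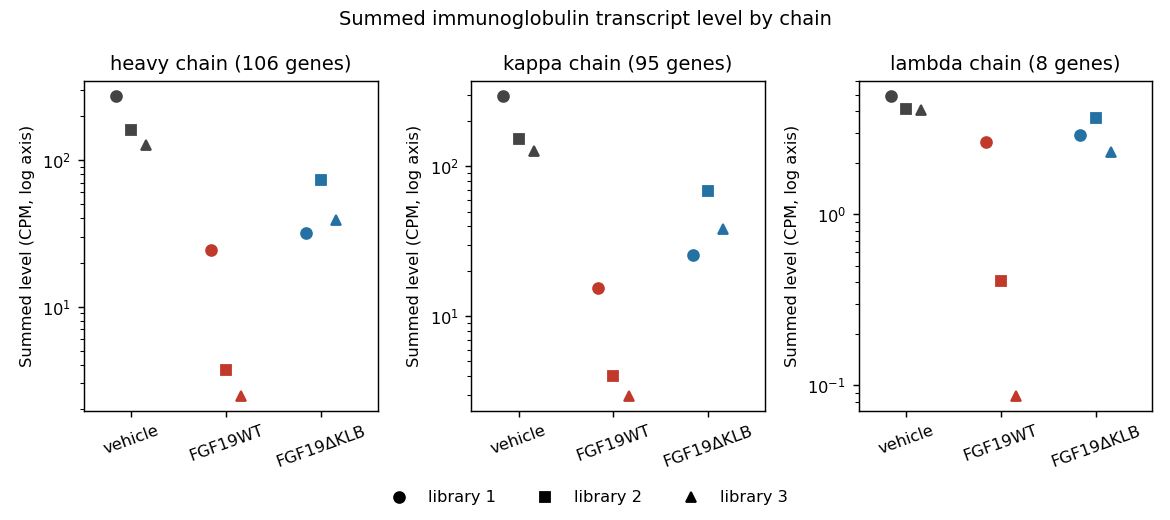
Summed immunoglobulin level in CPM (log axis) for heavy, kappa and lambda genes, 1 point per library with the marker giving the library number. All FGF19WT and FGF19ΔKLB points lie below all vehicle points in each panel, with FGF19WT libraries 2 and 3 at the bottom (3.70 and 2.48 CPM for heavy chains).

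Among the constant regions tested, Ighg1 and Ighg2c had the largest fitted differences between FGF19WT and vehicle. Ighg1, the most abundant heavy chain gene in vehicle, had 162, 97.8 and 67.5 CPM there, 1.41, 0.70 and 0.17 CPM with FGF19WT, and 3.75, 14.1 and 13.6 CPM with FGF19ΔKLB. The groups do not overlap, and every FGF19WT library, library 1 included, was at or under 96 counts where vehicle libraries had 5276 to 12132. Ighg1 fell with FGF19WT by 7.16 on the log2 scale (SE 0.89, 143-fold by means; edgeR quasi-likelihood adjusted p = 0.0471). With FGF19ΔKLB its log2 difference from vehicle was -3.38 (SE 0.74, 10.4-fold by means; edgeR adjusted p = 0.243 over 9 libraries and 0.0566 over the 6 libraries of those groups), which did not pass. The FGF19WT call was lost without FGF19WT libraries 2 and 3, where the log2 difference was -6.27 with an edgeR adjusted p of 0.271, from the 1 library left.

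The other IgG genes lay the same way without passing the test. Ighg2c had 24.2, 9.04 and 4.72 CPM in vehicle, 0.18, 0.05 and 0.36 with FGF19WT and 2.11, 5.61 and 5.47 with FGF19ΔKLB. Its log2 difference between FGF19WT and vehicle was -6.02 (SE 0.92, edgeR adjusted p = 0.0702). Ighg2b had 15.5, 7.80 and 7.60 CPM, then 1.27, 0.31 and 0, then 3.59, 11.8 and 2.54, with a log2 difference of -4.29 for FGF19WT (SE 1.25, edgeR adjusted p = 0.142), which was -3.01 without FGF19WT libraries 2 and 3. In both genes FGF19WT lies wholly below vehicle while FGF19ΔKLB overlaps it. Ighg3 was carried mainly by 1 library: 330 of the 349 vehicle counts were in vehicle 3, and it had 0 to 8 counts with FGF19WT and 0 to 53 with FGF19ΔKLB. The 4 IgG genes together were 87.6-fold lower by means with FGF19WT than in vehicle (44.9-fold in library 1 alone) and 6.31-fold lower with FGF19ΔKLB.

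IgA and the kappa constant region were also low in the treated groups, by smaller ratios than Ighg1. Igha, the class of mucosal antibody, had 23.2, 11.8 and 14.2 CPM in vehicle, 4.32, 0.97 and 0.67 with FGF19WT and 8.91, 11.7 and 7.78 with FGF19ΔKLB. No Igha value of a treated library reaches the lowest vehicle value, though FGF19ΔKLB 2 comes close to it. Its log2 differences from vehicle were -3.05 (SE 0.68, edgeR adjusted p = 0.125) with FGF19WT and -0.79 (SE 0.63, adjusted p = 0.814) with FGF19ΔKLB, and the first was -1.92 without FGF19WT libraries 2 and 3. Igkc, the constant region of kappa light chains, had 189, 95.7 and 79.8 CPM in vehicle, 9.54, 2.90 and 2.23 with FGF19WT and 15.8, 42.4 and 26.9 with FGF19ΔKLB. The 3 groups do not overlap for Igkc, and neither difference passed: -4.63 (SE 0.70, edgeR adjusted p = 0.0685) with FGF19WT and -2.10 (SE 0.62, adjusted p = 0.411) with FGF19ΔKLB. Without FGF19WT libraries 2 and 3 the first was -3.67.

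IgM and IgD, the classes of naive B cells, did not share this pattern. Ighm had 6.91, 7.49 and 6.54 CPM in vehicle, 11.9, 1.36 and 0.78 with FGF19WT and 6.66, 18.3 and 3.83 with FGF19ΔKLB. FGF19WT library 1 and FGF19ΔKLB library 2 were above every vehicle library, while FGF19WT libraries 2 and 3 were the lowest of the 9. The log2 differences from vehicle were -0.58 (SE 0.95, edgeR adjusted p = 0.760) and 0.46 (SE 0.95, adjusted p = 0.945), and the first is 0.77 without FGF19WT libraries 2 and 3. Ighd was at 0.79 to 1.20 CPM in vehicle, 2.31, 0.16 and 0.49 with FGF19WT and 0.87 to 1.76 with FGF19ΔKLB, with log2 differences of 0.06 (SE 0.82, edgeR adjusted p = 0.976) and 0.36 (SE 0.82, adjusted p = 0.954), the first being 1.29 without FGF19WT libraries 2 and 3. These errors leave room for changes of several fold in either direction, so equality is not shown.

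The remaining constant genes were low. Iglc1, Iglc2 and Iglc3, the lambda constant regions, had 17 to 98 counts per library in vehicle, 0 to 47 under FGF19WT and 12 to 62 under FGF19ΔKLB, and none was called. Ighe, the IgE gene, had 4 counts over the vehicle libraries, 0 with FGF19WT and 19 with FGF19ΔKLB, with no library above the floor. It did not pass the filter on low counts and was not tested.

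**Figure D2:**
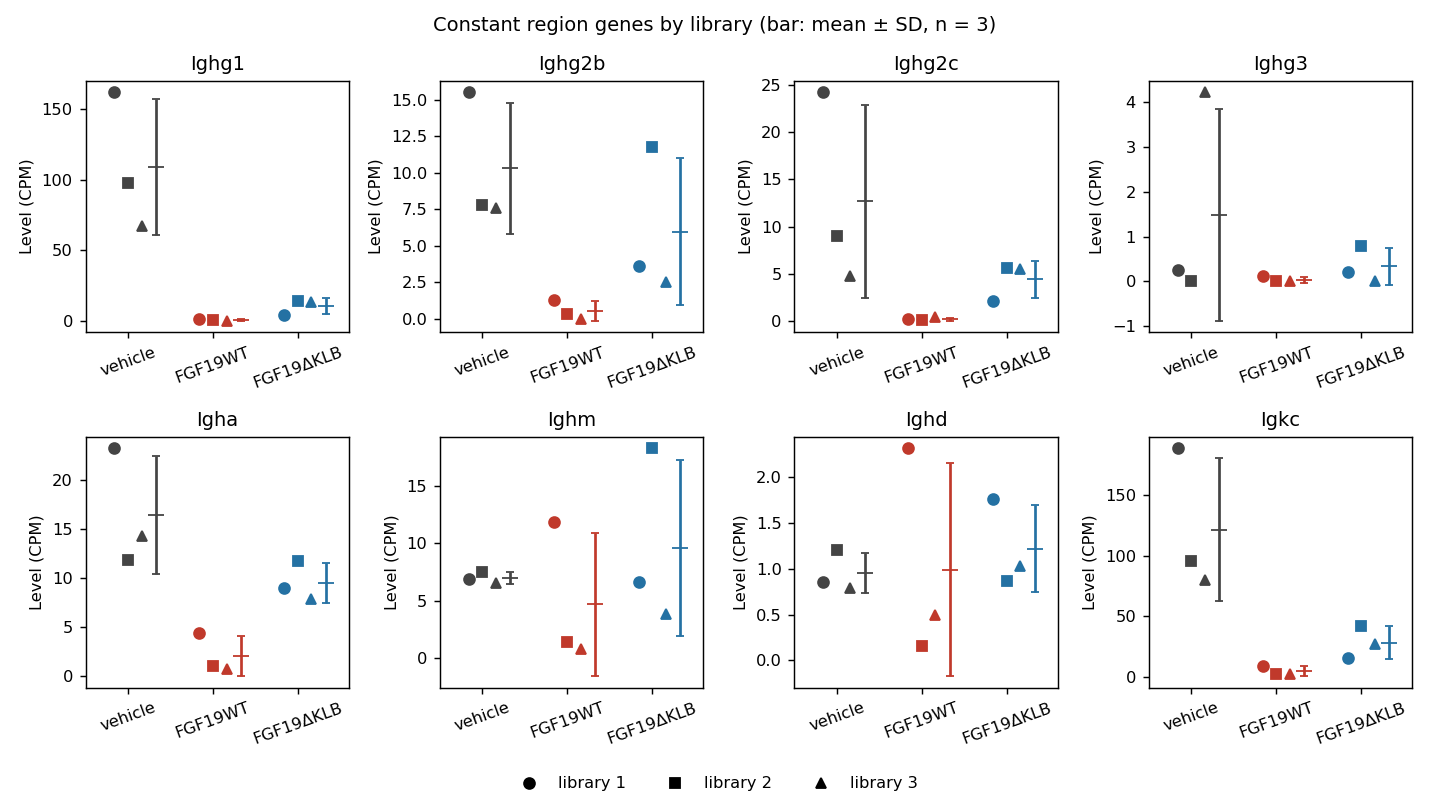
Level in CPM (linear axes, each panel with its own scale) of the 7 heavy chain constant region genes other than Ighe and of Igkc, 1 point per library with the mean ± SD (n = 3) beside it. Ighg1 and Igkc separate the 3 groups, whereas for Ighm FGF19WT library 1 (11.9 CPM) and FGF19ΔKLB library 2 (18.3 CPM) lie above the vehicle libraries.

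The class makeup of what remained was different from vehicle. On the FPKM scale, which is per length and allows genes to be compared, Ighg1 made up 62.8%, 66.8% and 60.1% of the heavy chain constant signal in vehicle. It made up 5.26%, 17.1% and 5.17% with FGF19WT, and 11.7%, 18.7% and 33.2% with FGF19ΔKLB. Ighm and Ighd together made up 4.13%, 8.12% and 8.95% in vehicle, 72.9%, 50.4% and 53.6% with FGF19WT and 36.1%, 35.1% and 16.2% with FGF19ΔKLB. The IgM and IgD share separates all 3 groups. The Ighg1 share is highest in every vehicle library, while the treated groups overlap in it, since FGF19WT library 2 lies above FGF19ΔKLB library 1. The ratio of Ighg1 to Ighm in FPKM was 7.52 to 17.1 in vehicle, 0.0860 to 0.378 under FGF19WT and 0.409 to 2.59 under FGF19ΔKLB. FGF19WT libraries 2 and 3 give these shares from only 288 and 171 heavy chain constant counts, while library 1, with 1469, has the lowest ratio of the 9. Igha stood at 7.82% to 12.3% in vehicle, 15.6% to 23.1% under FGF19WT and 15.2% to 27.1% under FGF19ΔKLB.

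Kappa remained the main light chain in every library. Kappa was 97.5% to 98.8% of the light chain constant FPKM in vehicle, 84.7% to 96.6% under FGF19WT and 92.6% to 96.3% under FGF19ΔKLB. The lowest kappa share was that of FGF19WT library 1. The ratio of light to heavy constant FPKM was 3.25 to 3.61 in vehicle, 2.05 to 3.85 with FGF19WT, which overlaps vehicle, and 2.59 to 3.34 with FGF19ΔKLB.

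**Figure D3:**
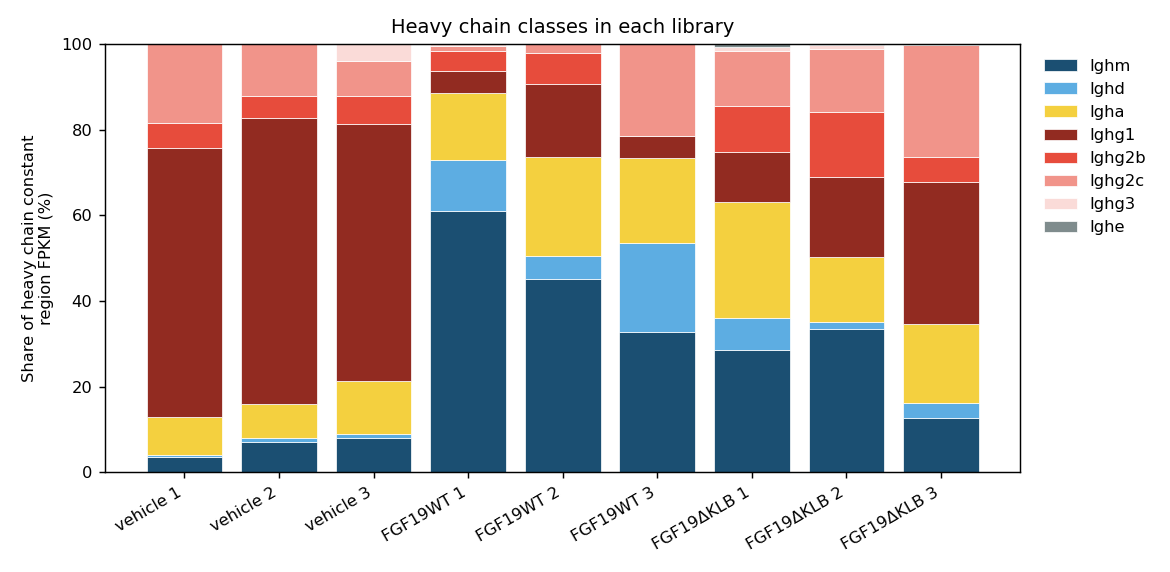
Share of each class in the heavy chain constant region FPKM (%, stacked to 100) in the 9 libraries. Ighg1 fills 60.1% to 66.8% of the vehicle bars and Ighm with Ighd 50.4% to 72.9% of the FGF19WT bars. Every FGF19ΔKLB bar lies between those groups for Ighm with Ighd (16.2% to 36.1%), but not for Ighg1, where it overlaps FGF19WT.

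Fewer V genes were counted where the total was lower. At least 12 counts were reached by 87, 83 and 98 of the 185 V genes in vehicle, by 13, 2 and 0 with FGF19WT and by 29, 69 and 24 with FGF19ΔKLB. The groups do not overlap, and the order of the libraries within each treated group is that of their summed V counts (643, 105 and 49 with FGF19WT, and 1062, 2522 and 1027 with FGF19ΔKLB). FGF19ΔKLB library 2, with the most V counts of the treated libraries, also has the most V genes. Within vehicle the order differs, since library 1 has 11085 V counts and library 3 has 5452 with more V genes. Of all 209 members, 103 had a count in each vehicle library, 10 in each FGF19WT library and 64 in each FGF19ΔKLB library. In no library of the group was a count found for 11 members in vehicle, 114 with FGF19WT and 41 with FGF19ΔKLB.

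Which V gene led a chain differed between libraries. In vehicle the highest heavy V genes were Ighv1-63 with 339 counts, Ighv8-12 with 351 and Ighv9-4 with 106, and the highest kappa V genes were Igkv19-93 with 900, Igkv3-7 with 449 and Igkv12-44 with 365. With FGF19WT, Ighv4-1 led library 1 with 44 counts, 24.3% of its heavy V counts, and Igkv1-88 led its kappa V genes with 97, or 24.6%. Leaders in FGF19WT libraries 2 and 3 (Ighv10-3, Igkv8-27 and Igkv6-15) had at most 12 counts, and library 3 had no heavy V count at all. With FGF19ΔKLB the leaders were Ighv1-26 with 47 counts, Ighv4-1 with 38 and Ighv1-82 with 87, and Igkv5-39 with 59, Igkv1-110 with 145 and Igkv14-100 with 72. No V gene led the same chain in all libraries of a group except Iglv1, which led lambda wherever lambda V was counted. The spread of V use can be put as an effective number, the inverse Simpson index, which is the number of equally used genes that would give the same concentration. For kappa it was 18.5, 21.9 and 32.2 in vehicle, 12.4 in FGF19WT library 1, and 30.9, 32.4 and 26.8 with FGF19ΔKLB. FGF19WT libraries 2 and 3 gave 12.5 and 8.67 from only 89 and 49 kappa V counts. The FGF19ΔKLB kappa values were above those of vehicle libraries 1 and 2, with fewer counts. The heavy V values did not show this: they were 16.6, 14.3 and 30.5 in vehicle, 9.21 and 2.32 in FGF19WT libraries 1 and 2, and 15.8, 36.2 and 7.56 with FGF19ΔKLB, where library 3 was below every vehicle library and library 2 above every one.

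**Figure D4:**
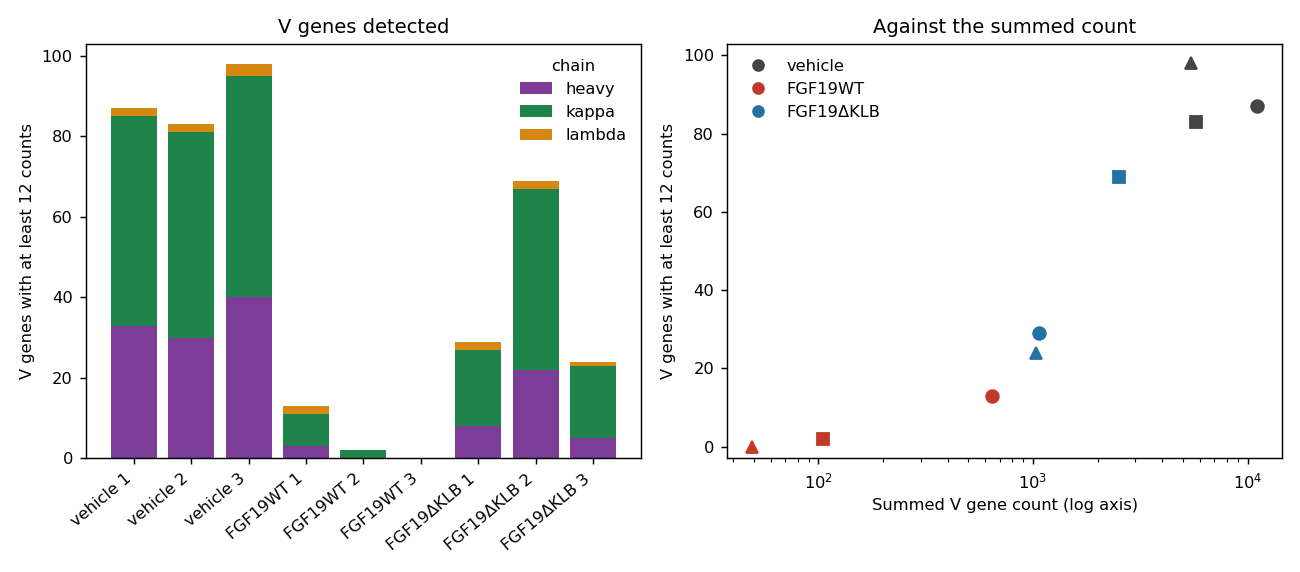
Left, number of V genes with at least 12 counts per library, stacked by chain; right, the same number against the summed V gene count (log axis). The vehicle libraries have 83 to 98 such genes, the FGF19ΔKLB libraries 24 to 69 and the FGF19WT libraries 0 to 13.

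The V genes described next had the highest mean CPM over all 9 libraries. Vehicle held most of the V counts, so that choice favours genes that are high in vehicle, and their values are a description only. Ighv8-12 had 258, 351 and 96 counts in vehicle, 0 in every FGF19WT library and 8, 4 and 0 with FGF19ΔKLB. Ighv1-22 had 231, 121 and 96, then 0 throughout, then 6, 8 and 1. Igkv19-93 had 900, 240 and 117 in vehicle, 4, 0 and 4 with FGF19WT and 11, 12 and 15 with FGF19ΔKLB. In all 3 genes no treated library came near the lowest vehicle library. Ighv1-63 was uneven within vehicle, at 339, 35 and 21 counts, and was at 0 in all 6 treated libraries. Ighv1-26 (333, 42 and 102 in vehicle) kept 47, 12 and 7 counts with FGF19ΔKLB, so that those groups overlap, and so did Ighv1-82 (201, 102 and 52) with 11, 23 and 87. Igkv6-23, Igkv3-7 and Igkv3-5 ranged from 35 to 866 counts in vehicle, from 0 to 8 with FGF19WT and from 0 to 23 with FGF19ΔKLB.

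For FGF19WT against vehicle, 4 members were called, all lower (edgeR, adjusted p under 0.05 over 18142 genes tested), where 0.0827% of all genes tested were called lower. They are Ighg1 and 3 kappa V genes. Igkv10-94 had 123, 265 and 134 counts in vehicle, 0 in all FGF19WT libraries and 17, 17 and 13 with FGF19ΔKLB, at least 14.5-fold lower with FGF19WT against a floor of 12 counts per library (edgeR adjusted p = 0.0406). Igkv12-44 had 612, 136 and 365, then 0 throughout, then 8, 29 and 15, at least 29.8-fold lower (edgeR adjusted p = 0.0478). Igkv8-24 had 302, 63 and 230, then 0 throughout, then 26, 42 and 19, at least 15.9-fold lower (edgeR adjusted p = 0.0478). In each, the FGF19ΔKLB libraries lie between, above FGF19WT and below the lowest vehicle library. Igkv10-95, the near copy of Igkv10-94 printed above, had at most 4 counts in any library, and Igkv12-46, the near copy of Igkv12-44 and named after its values were seen, had 156, 402 and 85 counts in vehicle.

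These 4 calls rest on the whole set of libraries. Leaving out any library other than FGF19WT 1 ended all 4, and leaving out FGF19WT libraries 2 and 3 together did so as well. Without FGF19WT 1, 63 members were called lower, the 4 among them, where 14.3% of all genes tested were called lower. Over the 6 libraries of these groups edgeR called 0 members, against 0.00574% of genes lower, and without FGF19WT 2 and 3 also 0, against 0.0452%. The DESeq2 Wald test called 56 members and limma on log2(FPKM + 1) called 20, all lower, where they called 3.32% and 0.513% of genes lower. Of the 209 members, 84 had every FGF19WT library below every vehicle library, against 8.34% of all listed genes, and 0 had every one above, against 7.79%. Of the members, 97 passed the filter on low counts, which keeps a gene that is high in only 1 group. Their median log2 difference was -5.18, with 94 negative and 71 lower at an unadjusted p under 0.05, beside a median of -0.005 and 7.07% over all genes tested. Without FGF19WT libraries 2 and 3, 151 members passed the filter, and 42 of them had an unadjusted p under 0.05 in either direction, against 6.87% of all genes tested.

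For FGF19ΔKLB against vehicle, 0 members were called over 9 libraries, where 0.011% of all genes tested were called (edgeR). At an unadjusted p under 0.05, 25 members were lower and 0 higher, against 3.72% and 4.64% of all genes tested. The DESeq2 Wald test called 15 members and limma on log2(FPKM + 1) called 9, all lower, where they called 1.04% and 0.382% of all genes tested lower. Over the 6 libraries of these groups edgeR called 5 members, all lower, against 0.79% of genes. They are Igkv10-94 (adjusted p = 0.0219), Ighv1-22 (0.0246), Igkv12-44 (0.0391), Ighv8-12 (0.0402) and Igkv12-46 (0.0461), the last with 2, 6 and 10 counts in the FGF19ΔKLB libraries. In the model of all groups, edgeR called 5 members without FGF19WT 2 and 3 and 3 without FGF19WT 1, all lower, against 0.718% and 0.426% of genes. Of the 209 members, 44 had all FGF19ΔKLB libraries below all vehicle libraries, against 8.57% of all listed genes. Only 3 had all above, against 9.62%, and these are Ighe, Ighv14-2 (0, 2 and 13 counts in vehicle, 13, 14 and 34 with FGF19ΔKLB, apart only after scaling) and Ighv7-3 (4, 10 and 0, then 15, 12 and 28), named after their values were seen. Of the 97 past the filter, 85 had a negative difference, with a median of -1.79 on the log2 scale beside 0.002 over all genes tested. The filter can keep a gene that is high in vehicle alone, which limits all counts of tested members here. Over all 209 members, the FGF19ΔKLB mean was lower than vehicle in 159 and higher in 49, against 13283 and 13701 of the 28517 listed genes.

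For FGF19ΔKLB against FGF19WT, 0 members were called, where 0.0% of all genes tested were called (edgeR), and limma called 0 as well. At an unadjusted p under 0.05, 37 members were higher and 0 lower, against 4.54% and 7.96% of all genes tested. The DESeq2 Wald test called 24 members, all higher, where it called 1.19% of genes higher, and edgeR without FGF19WT 1 called 30, all higher, against 10.9%. Of the 209 members, 41 had all FGF19ΔKLB libraries above all FGF19WT libraries, against 6.35% of all listed genes, and 0 had all below, against 4.67%. Ighg1 was 13.8-fold higher by means in FGF19ΔKLB (log2 3.78, SE 0.77, edgeR adjusted p = 0.237) and Igkc 5.80-fold higher (log2 2.54, SE 0.64, adjusted p = 0.237). Without FGF19WT libraries 2 and 3 these log2 differences were 2.89 and 1.57, and 20 members had an unadjusted p under 0.05 in either direction, against 5.77% of genes. The 3 comparisons share their groups, so each is read by its own values.

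J and D segments were almost absent as separate genes. The 12 of them had 16 counts at most in any library (vehicle 3), from Ighj1 to Ighj4, Igkj1 to Igkj5, Iglj2, Iglj3p and Ighd4-1, and no single one exceeded 4. The annotated J genes are 38 to 54 bases long. No J or D gene passed the filter.

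The plasma cell genes Jchain and Mzb1 were also higher in every vehicle library than in any treated library. Of the 10 genes of their list, 4 lay wholly below vehicle with FGF19WT and 5 with FGF19ΔKLB, Jchain and Mzb1 among both. Over all listed genes the shares were 8.34% and 8.57%. Irf4 and Slamf7 were highest in vehicle by group means only, since FGF19WT library 1 (Irf4) or 2 (Slamf7) lay above every vehicle library. Derl3 was not highest in vehicle. Jchain, which links IgA and IgM into polymers, had 44.6, 10.4 and 13.2 CPM in vehicle, 2.61, 0.65 and 0.06 with FGF19WT and 5.44, 7.41 and 4.55 with FGF19ΔKLB. Mzb1, an endoplasmic reticulum protein that helps antibody assembly, had 1.40, 0.69 and 0.45 CPM, then 0.19, 0.06 and 0.06, then 0.25, 0.30 and 0.15. Its counts were 13, 5 and 4 with FGF19WT and 17, 20 and 9 with FGF19ΔKLB, in part under the floor of 12. Against that floor Mzb1 was at least 4.95-fold lower than vehicle by means with FGF19WT and 3.41-fold lower with FGF19ΔKLB. Both treated groups lie below vehicle for both genes. None of these differences passed: with FGF19WT the log2 differences were -4.36 for Jchain (SE 1.10, edgeR adjusted p = 0.127) and -3.02 for Mzb1 (SE 0.72, adjusted p = 0.125), and with FGF19ΔKLB they were -1.97 (SE 0.99, adjusted p = 0.664) and -1.86 (SE 0.68, adjusted p = 0.519). Without FGF19WT libraries 2 and 3 the FGF19WT values were -3.12 for Jchain and -2.14 for Mzb1. The 10 plasma cell genes summed to 23.9 to 60.3 CPM in vehicle, 3.13 to 11.4 under FGF19WT and 14.7 to 15.7 under FGF19ΔKLB, a sum that in vehicle library 1 is mostly Jchain. Without Jchain, left out after its values were seen, the other 9 summed to 11.5 to 15.7, then 3.07 to 8.76, then 7.43 to 11.1 CPM. Tent5c makes up most of that sum in every vehicle and FGF19ΔKLB library. Of the 9 tested, 8 were negative in each comparison with vehicle and 0 were called. Tent5c, a poly(A) polymerase active in plasma cells, had 7.66 to 10.1 CPM, then 5.20, 0.92 and 1.0, then 4.47 to 8.76, and Slamf7, a surface receptor of plasma cells and other leukocytes, had 0.78 to 0.90, then 0.60, 1.12 and 0.25, then 0.51 to 0.76. Derl3, which serves the removal of misfolded proteins from the endoplasmic reticulum, lay the other way, at 0.16, 0.23 and 0.06 CPM in vehicle, 0.28, 1.5 and 0.93 with FGF19WT and 0.13, 0.31 and 0.08 with FGF19ΔKLB. Its FGF19WT libraries are all above vehicle (log2 difference 2.56, SE 0.82, edgeR adjusted p = 0.165), which did not pass. Irf4, a transcription factor of plasma cells and other lymphocytes, had 0.33 to 0.67, then 0.76, 0.28 and 0.12, then 0.20 to 0.45, so that FGF19WT library 1 was above vehicle. Derl3 and Irf4 were named after their values were seen.

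The B cell genes Cd79a and Ms4a1 did not separate the groups. Cd79a, a signalling chain of the B cell receptor, had 0.72 to 1.72 CPM in vehicle, 1.44, 0.17 and 0.23 with FGF19WT and 0.28 to 0.80 with FGF19ΔKLB. Ms4a1, which encodes CD20, had 0.28 to 0.37, then 0.996, 0.15 and 0.06, then 0.19 to 0.38. Both genes overlap between the groups, and in each FGF19WT library 1 was within or above the vehicle range and libraries 2 and 3 were below it. Cd72 and Cd37, which other leukocytes also carry, were the highest of the list after Blnk, at 3.25 to 5.91 and 2.12 to 2.75 CPM in vehicle, 1.31 to 4.25 and 0.81 to 2.11 with FGF19WT and 1.91 to 2.78 and 1.15 to 2.36 with FGF19ΔKLB. Without Blnk, the other 17 genes summed to 11.9 to 14.7 CPM in vehicle, 17.9, 7.24 and 3.34 with FGF19WT and 8.63 to 11.8 with FGF19ΔKLB, and 9 of them were at 0 in FGF19WT library 3. Leaving out Blnk was decided after its values were seen.

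Blnk, which encodes an adaptor downstream of the B cell receptor, went the other way. It had 1.19, 1.45 and 0.98 CPM in vehicle, 9.02, 24.2 and 26.3 with FGF19WT and 7.67, 5.61 and 5.44 with FGF19ΔKLB. Every treated library is above every vehicle library. Blnk rose with FGF19WT by 4.04 on the log2 scale (SE 0.42, edgeR adjusted p = 0.0406) and was the only gene called in any of the 12 companion lists over 9 libraries. With FGF19ΔKLB the log2 difference was 2.37 (SE 0.40, edgeR adjusted p = 0.144 over 9 libraries and 0.0123 over 6). Without FGF19WT libraries 2 and 3 the log2 difference was 2.90 (edgeR adjusted p = 0.0233), a p that rests on 1 FGF19WT library and the spread of the other groups. The call was lost under 10 of 18 alternative settings. Over all 18 the log2 difference ranged from 1.75 to 4.38. That range includes limma on log2(FPKM + 1), whose scale is not that of the edgeR values. On leaving out 1 library each, the edgeR log2 difference ranged from 3.78 to 4.38.

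**Figure D5:**
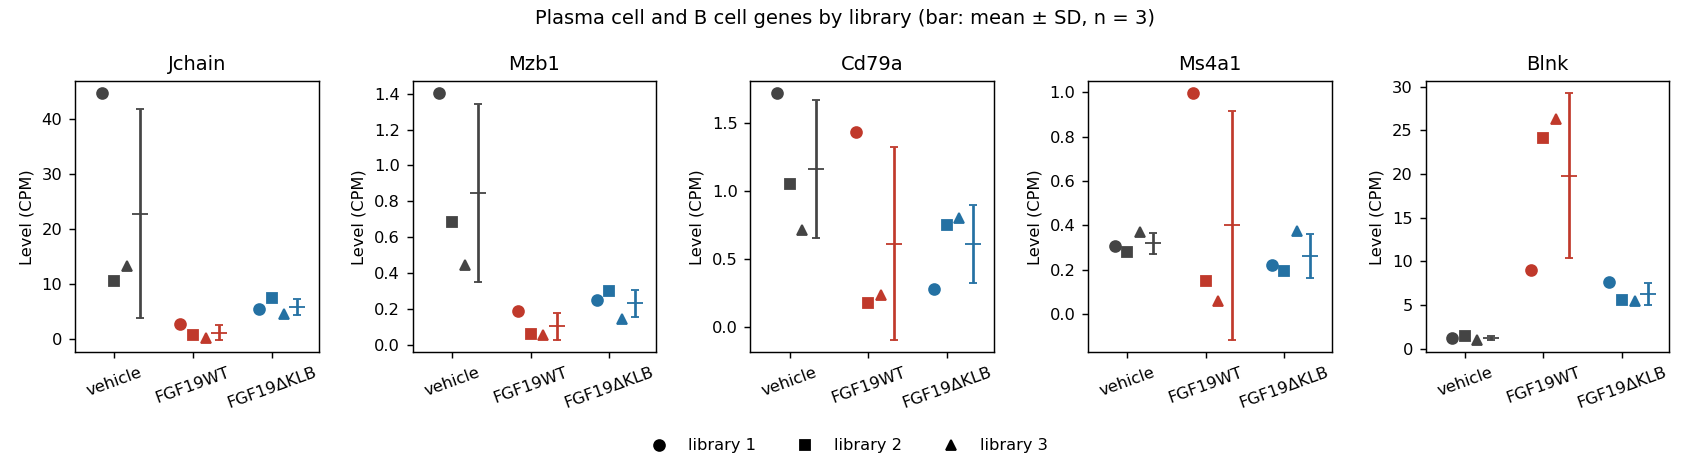
Level in CPM (linear axes, each panel with its own scale) of plasma cell genes (Jchain, Mzb1) and B cell genes, 1 point per library with the mean ± SD (n = 3) beside it. Jchain and Mzb1 are lower in all treated libraries, Cd79a and Ms4a1 overlap between groups, and Blnk is higher in all treated libraries (5.44 to 26.3 CPM against 0.98 to 1.45).

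Other cells of the liver were read through marker lists, none of which had a gene called over 9 libraries apart from Blnk. T cell markers (13 genes) summed to 10.9 to 20.8 CPM in vehicle, 2.16 to 5.17 under FGF19WT and 2.36 to 5.04 under FGF19ΔKLB, without overlap with vehicle; 12 and 13 of the 13 were negative. Cd8a, Lck and Trbc2 had the highest means, and Cd8a had 2.62 to 6.02 CPM in vehicle and 0.15 to 0.48 in the treated libraries. Over 9 libraries its log2 difference from vehicle was -3.74 with FGF19WT (SE 0.53, edgeR adjusted p = 0.0583). With FGF19ΔKLB it was -3.29 (SE 0.51, edgeR adjusted p = 0.114). Over the 6 libraries of FGF19ΔKLB and vehicle Cd8a passed (edgeR adjusted p = 0.0187), where 0.79% of genes were called lower. Kupffer cell markers summed to 233 to 347 CPM in vehicle, 232, 67.1 and 31.5 with FGF19WT and 200 to 254 with FGF19ΔKLB. Sinusoidal endothelial markers gave 131 to 153, then 159, 36.6 and 72.3, then 72.8 to 121. Stellate cell markers gave 348 to 396, then 281, 208 and 230, then 126 to 253. Reln, which encodes an extracellular glycoprotein, makes up most of the stellate sum in FGF19WT libraries 2 and 3: it had 36.2 to 44.5 CPM in vehicle, 47.9, 175 and 212 with FGF19WT and 31.3 to 46.0 with FGF19ΔKLB, not overlapping between FGF19WT and vehicle (log2 difference 1.81, SE 0.47, edgeR adjusted p = 0.128). Without Reln, left out after its values were seen, the other 7 stellate markers summed to 311 to 352 CPM in vehicle, 233, 33.6 and 18.0 with FGF19WT and 93.7 to 207 with FGF19ΔKLB, and all 7 were negative with FGF19WT. In the Kupffer and endothelial lists FGF19WT library 1 was thus close to the vehicle range and libraries 2 and 3 were well below it. Clec4f, Cd5l and C1qb led the Kupffer list, Stab2, Stab1 and Clec4g the endothelial list and Dcn, Reln and Ecm1 the stellate list. Dcn, a matrix proteoglycan, had 156 to 186 CPM in vehicle, 101, 5.03 and 0.77 with FGF19WT and 35.3 to 102 with FGF19ΔKLB. The part that these markers play in the immunoglobulin values was not tested.

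Genes that serve antibody from the side of the tissue were mixed across lists. Of the 9 antibody receptors and transporters tested, 8 had a negative log2 difference from vehicle with each FGF19 form, and 0 were called. Of the 8 secretory genes, 3 were negative with FGF19WT and 0 with FGF19ΔKLB. Over all genes tested, 50.3% and 49.8% were negative with FGF19WT and FGF19ΔKLB. Pigr, which carries IgA and IgM across epithelium, had 1564 to 1768 CPM in vehicle, 1700, 22.8 and 22.8 with FGF19WT and 1009 to 1350 with FGF19ΔKLB. Fcgrt, the neonatal Fc receptor that protects IgG from breakdown, had 115 to 127 CPM in vehicle, 105 to 132 under FGF19WT and 101 to 112 under FGF19ΔKLB. Fcgr2b, an inhibitory IgG receptor, had 17.4 to 26.9, then 13.7 to 27.4, then 10.6 to 15.0. Xbp1, a factor of secretory cells including plasma cells and hepatocytes, had 132 to 218 CPM in vehicle, 202, 556 and 550 with FGF19WT and 258 to 408 with FGF19ΔKLB. With Sdc1 and Txndc5 it led the 8 secretory genes, which summed to 600 to 734 CPM in vehicle, 657, 1015 and 1000.2 with FGF19WT and 822 to 1013 with FGF19ΔKLB. Among survival factors and chemokines, Cxcl12 had 210 to 267 CPM in vehicle, 255, 29.6 and 23.5 with FGF19WT and 212 to 269 with FGF19ΔKLB, and Tnfsf13, which encodes APRIL, a survival factor of plasma cells, had 0.06 to 0.51, then 2.07, 8.63 and 27.5, then 1.25 to 2.03. The third gene of that list by mean level was Cxcl13, a B cell chemokine, with 0.50 to 4.37, then 0.66, 0 and 0, then 0.13 to 1.32.

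Genes of B cell development were near 0, with exceptions. Rag1, Igll1 and Vpreb1, which serve rearrangement and the surrogate light chain, did not exceed 0.16 CPM in any library. Vpreb3 was at 0 in vehicle and had 0.35, 4.66 and 21.5 CPM with FGF19WT and 0.60 to 0.92 with FGF19ΔKLB. Dntt, a polymerase that adds bases at V, D and J joints, had 1.69 to 4.11 CPM in vehicle, 1.83, 0.05 and 0.49 with FGF19WT and 4.60 to 11.1 with FGF19ΔKLB. Ung, a DNA repair enzyme used in class switching and in all dividing cells, had 4.4 to 6.41, then 4.97 to 6.14, then 2.05 to 6.37. None of these genes was called over 9 libraries. Over the 6 libraries of FGF19ΔKLB and vehicle, Vpreb3 passed as higher (edgeR adjusted p = 0.0250), where 1.68% of genes were called in either direction.

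Hepatocyte markers (7 measured) and erythroid and blood markers (9) had 0 genes called over 9 libraries. The hepatocyte markers, mostly Alb, the gene of serum albumin, summed to 134058, 162835 and 103169 CPM in vehicle, 202787, 98770 and 108834 with FGF19WT and 250258, 206706 and 294849 with FGF19ΔKLB. FGF19ΔKLB thus lies wholly above vehicle, while FGF19WT overlaps it. The median log2 difference of these markers from vehicle was -0.17 with FGF19WT and 0.67 with FGF19ΔKLB. The erythroid and blood markers summed to 338 to 483 CPM in vehicle, 177, 515 and 801 with FGF19WT and 438, 201 and 1774 with FGF19ΔKLB, with medians of 0.55 and 1.29. Both treated groups overlap vehicle in that sum, and FGF19ΔKLB library 3 is the highest of the 9. The part of either list in the immunoglobulin values of FGF19ΔKLB was not tested.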

How the data were processed

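The authors deposited 1 table with an expected count and an FPKM value for each gene and library. The deposited expected counts are whole and carry no scaling to library totals, and the deposited FPKM values are scaled for length and library by the authors. The submitters' processing notes name Bowtie 0.12.2, HISAT2 2.0, StringTie 1.3.0 and the build mm8 without a role, while gene positions follow GENCODE M21 on GRCm38. How reads that match several V genes were counted is not given in the sources used here.

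Members were found by symbol. All genes past the low count filter of edgeR 4.0.16 (R 4.3.3), 18142 of 28517, entered 1 robust quasi-likelihood model of the 9 libraries. It used TMM normalization and a group term alone, which left 6 residual degrees of freedom. Adjusted p-values are Benjamini-Hochberg over all genes tested, with a threshold of 0.05. A trial run on simulated counts was also made. Its settings and outcome are not given here, so no error rate for these libraries is drawn from it. Sums over members, class shares and V gene numbers have no test. A fold against a group under 12 counts per library was taken against that floor. Sequences were read from the GENCODE M21 transcripts. Alternatives were the Wald test of DESeq2 1.42.0 and its size factors, limma 3.58.1 on log2(FPKM + 1), other filters, 6 libraries, a replicate block, counts divided by 4 and leaving out libraries.

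Named genes are all constant regions, the 5 Ighv, 5 Igkv and 2 Iglv genes with the highest mean CPM, the leading V gene of each chain and library, called members, D and J genes with a count, and, from 12 companion lists, called genes, the 3 highest and 7 fixed genes. The lists cover B cells, plasma cells, secretory genes, the surrogate light chain and recombination, antibody receptors, survival factors and chemokines, T cells, Kupffer cells, endothelium, stellate cells, hepatocytes and erythroid cells. Members and lists were chosen with earlier results of these data known. Results for 2 genes of these lists are not reported here.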

Additional observations from a re-analysis of the deposited data

How the results depend on the processing

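The number of members called depended on the setting. For FGF19WT against vehicle it was 4 with edgeR over 9 libraries and 4 with DESeq2 size factors, 5 with no filter, 1 with at least 5 CPM in at least 3 libraries, 56 with the DESeq2 Wald test, 20 with limma on log2(FPKM + 1), 0 over 6 libraries, 0 with the replicate block, 0 without FGF19WT 2 and 3 together and 2 with counts divided by 4. Leaving out 1 library each gave 0 to 63, the 63 without FGF19WT 1. For FGF19ΔKLB against vehicle it was 0, with 15 by the Wald test, 9 by limma, 5 over 6 libraries, 5 without FGF19WT 2 and 3 together, and 0 to 3 on leaving out 1 library each. For FGF19ΔKLB against FGF19WT it was 0, with 24 by the Wald test and 0 to 30 on leaving out 1 library each. Correlations of deviations between same-numbered libraries ran from -0.048 to 0.147. Between vehicle and FGF19ΔKLB each library correlated best with its own number, at 0.030 to 0.064. Between vehicle and FGF19WT none did, at -0.028 to -0.021, and between FGF19WT and FGF19ΔKLB only library 3 did. Whether replicate numbers pair the samples cannot be decided from these values. The block called 0 members in all 3 comparisons, which does not bear on pairing.

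The log2 ratio of summed level between FGF19WT and vehicle was -4.36 for all members and, on leaving out 1 library each, ranged from -5.81 to -3.92, with -5.91 to -3.74 for heavy, -5.78 to -4.23 for kappa and -4.14 to -1.52 for lambda chains. The lowest of each came without FGF19WT 1. Without FGF19WT 2 and 3 together it was -3.18 for all members, -2.94 for heavy, -3.64 for kappa and -0.73 for lambda chains. Between FGF19ΔKLB and FGF19WT it was 2.35 and ranged from 1.90 to 3.80, with 1.77 to 3.95 for heavy, 2.09 to 3.66 for kappa and 0.96 to 3.58 for lambda chains, and it was 1.16, 0.98, 1.52 and 0.16 without FGF19WT 2 and 3 together. Between FGF19ΔKLB and vehicle it was -2.01 and ranged from -2.46 to -1.60. V genes past the floor numbered 89.3 in vehicle and 40.7 with FGF19ΔKLB on average at 12 counts, and 44.3 and 7.67 at 40 counts.

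Directions of low or uneven genes reversed in places, none of them called. Without FGF19WT 2 and 3 together the log2 difference was 0.77 for Ighm and 0.10 for Iglc3 between FGF19WT and vehicle, and -0.31 for Ighm, -0.93 for Ighd, -0.28 for Iglc1, -0.16 for Iglc2 and -0.54 for Iglc3 between FGF19ΔKLB and FGF19WT. Ighd was -0.57 with the replicate block between FGF19WT and vehicle. On leaving out 1 library each, Ighd ranged from -1.55 to 0.56 in that comparison and from -0.20 to 1.91 between FGF19ΔKLB and FGF19WT. Between FGF19ΔKLB and vehicle Ighg3 ranged from -3.72 to 1.39, Ighm from -0.41 to 0.84 and Iglc3 from -0.70 to 0.16. Of the single-gene results under alternatives, 861 stayed on the same side of the threshold, 82 passed it newly, 57 lost it and 17 reversed. The search for the octamer motif in V gene promoters was not run, since the sequence table used holds no V gene promoters. The causes of these differences were not tested. FGF19WT libraries 2 and 3 hold 657 and 381 immunoglobulin counts. Apart from 2 V genes in library 2 that reached the floor of 12 counts, single V genes there could not be told from 0.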
